A study of Homo sapiens with 6 samples.

Results

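Genomic regions in which wild-type cells and clone D3 had a CTCF peak and clone E4 had none were examined in the colon cancer line HCT-116, a human cell line. The 3 CTCF peak lists of the study were merged on chromosomes 1 to 22 wherever peaks overlapped by at least 1 bp, which gave 58351 regions. Positions of peaks and regions are given in hg19. Of these, 35597 held both a D3 and a WT peak, and 3905 of the 35597 held no E4 peak. That share, 11.0% (exact 95% interval 10.6% to 11.3%), is the background against which every later count is read. The other 31692 were called in all 3 lists.

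The groups were WT HCT-116 cells and the HCT-116 clones D3 and E4, which the labels describe as CTCF mutants, with no allele or position. What exactly was mutated is therefore not known here, and its part in the missing E4 peaks was not tested. No treatment is listed for any of them, and all were fixed with formaldehyde before chromatin immunoprecipitation. D3 and E4 are 1 clone each, and a single CTCF library was made of each population. Differences between them therefore have no replicate check, and no p-value is given. The 3 libraries made without antibody were not analysed here. The WT list held 38645 peaks, that of E4 39434 and that of D3 57935. Read depth is unknown, and intervals cover counting error only.

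CTCF is a zinc-finger protein that binds a long DNA motif, blocks contacts between enhancers and promoters at insulators, and halts the cohesin ring as it extrudes DNA, so that pairs of CTCF sites become the feet of chromatin loops. Sites differ widely in how strongly they hold CTCF and in how widely they are used across cell types. In the clustered protocadherins, CTCF bound at promoters of variable exons takes part in choosing the expressed isoform by looping to a distant enhancer.

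The clustered protocadherins on chromosome 5, which encode cell adhesion proteins, are shown first, because individual promoters can be named there. Within the cluster and 10 kb on either side, 17 regions held a D3 and a WT peak, and 9 of the 17 (52.9%, interval 27.8% to 77.0%) held no E4 peak. All 9 lay within 1 kb of a gene start, where 14 of the 17 regions lay. Among these 14 starts, those without an E4 peak were PCDHA9, PCDHA11, PCDHA13, PCDHB3, PCDHB7, PCDHGB2, PCDHGA6, PCDHGA8 and PCDHGB7. The other 5, PCDHA4, PCDHAC1, PCDHB9, PCDHB10 and PCDHGA10, had an E4 peak, as did the 3 regions away from a start. Elsewhere in the cluster, 2 regions held a D3 and an E4 peak but no WT peak, at PCDHA7 and PCDHB11. A further 12 held a D3 peak only and 1 a WT peak only. Many of the 53 starts examined had no peak in any list. The cluster was chosen with earlier results of these data known, so its share is a description.

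The promoters at 13 of the 14 starts could be matched to RefSeq (assembly GRCh38.p14), which held no entry used here for PCDHA13. The first set is shown to let the 8 matched promoters without an E4 peak be read side by side, each as 100 bases on the plus strand with GRCh38.p14 coordinates, ending 1 base before the start except for PCDHGB2, whose stretch begins 248 bases before it. Capitals mark GNCGCT, where N is any base, which contains the CGCT core known from protocadherin promoters.
PCDHA9 (chr5:140848282-140848381): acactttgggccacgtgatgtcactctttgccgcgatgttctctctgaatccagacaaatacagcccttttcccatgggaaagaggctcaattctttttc
PCDHA11 (chr5:140868857-140868956): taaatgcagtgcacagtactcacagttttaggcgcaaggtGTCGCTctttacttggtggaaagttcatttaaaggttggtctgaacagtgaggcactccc
PCDHB3 (chr5:141100373-141100472): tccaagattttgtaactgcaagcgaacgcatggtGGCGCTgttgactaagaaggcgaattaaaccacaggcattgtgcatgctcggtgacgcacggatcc
PCDHB7 (chr5:141172544-141172643): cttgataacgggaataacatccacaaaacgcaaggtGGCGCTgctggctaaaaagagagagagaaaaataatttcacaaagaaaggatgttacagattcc
PCDHGB2 (chr5:141359888-141359987): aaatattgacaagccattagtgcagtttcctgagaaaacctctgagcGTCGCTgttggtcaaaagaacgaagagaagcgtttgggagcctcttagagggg
PCDHGA6 (chr5:141373791-141373890): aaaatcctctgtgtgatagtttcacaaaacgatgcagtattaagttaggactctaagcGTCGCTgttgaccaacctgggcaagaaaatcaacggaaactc
PCDHGA8 (chr5:141392533-141392632): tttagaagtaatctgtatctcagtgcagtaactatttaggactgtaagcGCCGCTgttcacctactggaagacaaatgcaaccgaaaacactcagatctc
PCDHGB7 (chr5:141417577-141417676): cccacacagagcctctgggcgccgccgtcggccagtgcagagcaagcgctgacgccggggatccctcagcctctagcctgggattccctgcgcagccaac
The second set comes from the 5 starts at which all 3 lists held a peak, with the same meaning of the capitals.
PCDHA4 (chr5:140806968-140807067): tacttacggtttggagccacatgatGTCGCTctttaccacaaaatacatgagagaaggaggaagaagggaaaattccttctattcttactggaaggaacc
PCDHAC1 (chr5:140926199-140926298): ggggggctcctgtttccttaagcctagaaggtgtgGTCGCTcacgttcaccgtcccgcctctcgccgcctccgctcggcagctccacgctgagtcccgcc
PCDHB9 (chr5:141187061-141187160): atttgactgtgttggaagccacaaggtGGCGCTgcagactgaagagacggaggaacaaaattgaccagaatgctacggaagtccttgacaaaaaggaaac
PCDHB10 (chr5:141192253-141192352): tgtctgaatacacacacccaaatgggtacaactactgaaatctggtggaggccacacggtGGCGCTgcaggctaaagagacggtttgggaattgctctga
PCDHGA10 (chr5:141412887-141412986): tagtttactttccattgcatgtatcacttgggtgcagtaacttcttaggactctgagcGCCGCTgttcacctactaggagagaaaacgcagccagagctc

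GNCGCT, searched on both strands of the 300 bases from 250 before to 50 after the start, was found in 5 of 5 matched promoters with a peak in all 3 lists and in 6 of 8 without an E4 peak. PCDHA9 and PCDHGB7 held no match. Of the 47 clustered protocadherin promoters with an entry, 45 held it (95.7%), and of all 35116 RefSeq promoters 15459 did (44.0%). The motif was chosen after these letters had been seen. A match describes the letters and is not evidence of a bound site.

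Peak strength in the cluster is given as the authors' −log10 q, the significance their peak caller assigned to each peak within its own library. The E4 peak call was absent at PCDHB7, where the WT peak had 5.04 and the D3 peak 11.8, and at PCDHGA6, where they had 4.72 and 8.90. At PCDHA13 the values were 5.70 in WT and 4.11 in D3. Weaker peaks stood at PCDHA9, with 1.32 in WT and 2.52 in D3, and at PCDHA11, with 1.89 and 2.0. The neighbouring PCDHB9 and PCDHB10 kept E4 peaks of 2.11 and 3.78, beside WT peaks of 3.70 and 2.28, which were weaker than the WT peak of PCDHB7. WT strength alone did not order the starts by whether an E4 peak was called. In D3, the 5 starts called in all 3 lists had 6.61 (PCDHA4), 14.6 (PCDHB9), 15.3 (PCDHGA10), 16.2 (PCDHAC1) and 17.4 (PCDHB10). The 9 starts with a WT and a D3 peak but no E4 peak lay between 2.0 and 11.8 in D3. These ranges overlapped only between PCDHA4 and the starts of PCDHGA6 and PCDHB7. WT and D3 peaks helped to choose these regions, so the values are a description. Over the genome too, the share without an E4 peak fell from the weakest to the strongest decile. It fell from 49.8% to 0.225% by D3 strength and from 41.5% to 0.0281% by WT strength.

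**Figure D1:**
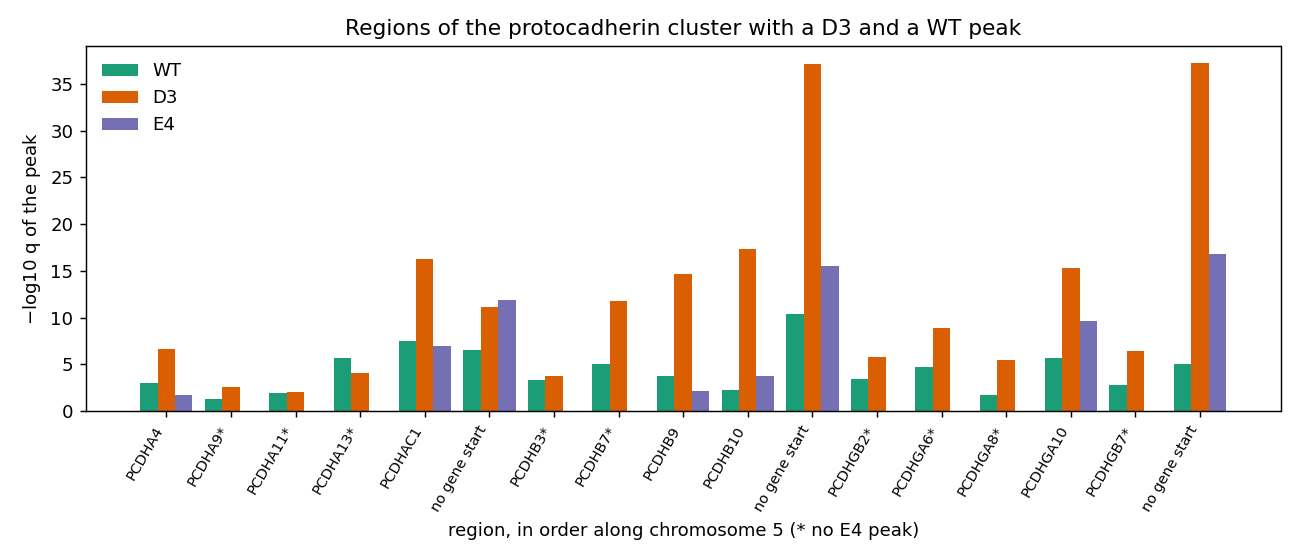
Bars give the authors' −log10 q of the WT, D3 and E4 peaks (y axis) in the 17 protocadherin regions that held a D3 and a WT peak, in order along chromosome 5, with a star where no E4 peak was called. The 9 starred regions all lie at gene starts, and at 4 of the 5 starts that kept an E4 peak the D3 bar is higher than at every starred start, PCDHA4 being the exception. D3 and WT peaks helped to choose the regions, so the heights are a description.

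The 3 regions away from starts had the highest E4 values of the cluster, the lowest of them 11.9. The region at chr5:140699256-140700477 (hg19) had a −log10 q of 10.4 in WT, 37.1 in D3 and 15.5 in E4, and that at chr5:140891055-140892622 had 5.05, 37.2 and 16.8. None of the 6 D3 and WT regions before the cluster, nor of the 6 after it, lacked an E4 peak. When each list was shortened to its 38645 strongest peaks, 13 regions remained in the cluster and 5 lacked an E4 peak, namely those at PCDHB7, PCDHGB2, PCDHGA6, PCDHGA8 and PCDHGB7. Across the whole list at that length, 6.99% did. Of the 6 regions in the cluster that reached a −log10 q of 5 in WT as well as in D3, only that at PCDHB7 lacked an E4 peak. The median WT −log10 q of the 17 regions was 3.70. Under a WT value of 5, 7 of 10 lacked an E4 peak, and from 5 upward 2 of 7 did. Over the genome these shares were 22.5% and 1.90%.

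Over the genome, the regions without an E4 peak held weak peaks in the other libraries. These values helped to choose the regions and are a description. The WT −log10 q had a median of 2.46 (quartiles 1.81 and 3.51, range 1.04 to 35.0), compared with 6.24 in regions of all 3 lists. In D3 the median was 5.63 (quartiles 3.59 and 8.65), compared with 16.5. The authors' fold enrichment over local background had medians of 3.83 in WT and 5.04 in D3, against 5.66 and 8.98 in regions of all 3 lists. Both libraries therefore placed the same regions low in their own ranking, at a median percentile of 14.6 among the 35597 in WT and 11.6 in D3.

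The share without an E4 peak fell at every step from the weakest to the strongest WT decile. It was 41.5% in the weakest decile of WT peaks, 10.9% in the fourth and 0.0281% in the strongest, which held 1 such region out of 3560. Along deciles of D3 strength it fell from 49.8% to 0.225%. Below a WT −log10 q of 5, 3527 of 15669 regions (22.5%) had no E4 peak, and from 5 upward 378 of 19928 (1.90%) had none. Only 341 of the 19781 regions with 5 or more in both WT and D3 (1.72%) were without one.

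Width followed strength. The regions had a median width of 774 bp (quartiles 588 and 988, range 264 to 4005), against 1199 bp for regions of all 3 lists, whose merged width also includes an E4 peak. The WT peaks in them had a median width of 393 bp against 687 bp, and the D3 peaks 692 bp against 1122 bp. Within the weakest WT decile the WT peaks had medians of 377 bp against 439 bp, and the D3 −log10 q in the same regions differed too, with medians of 4.58 against 7.1. Nearly all, 3897 of the 3905, consisted of 1 WT and 1 D3 peak. The widest, chr19:50416713-50420717, measured 4005 bp because of its D3 peak, while the WT peak inside it measured 313 bp. The next widest, chr13:29391063-29394713, chr9:116855289-116858852, chr20:1781324-1784682 and chr13:113809051-113812325, were likewise D3 peaks of 2893 to 3651 bp over far narrower WT peaks.

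**Figure D2:**
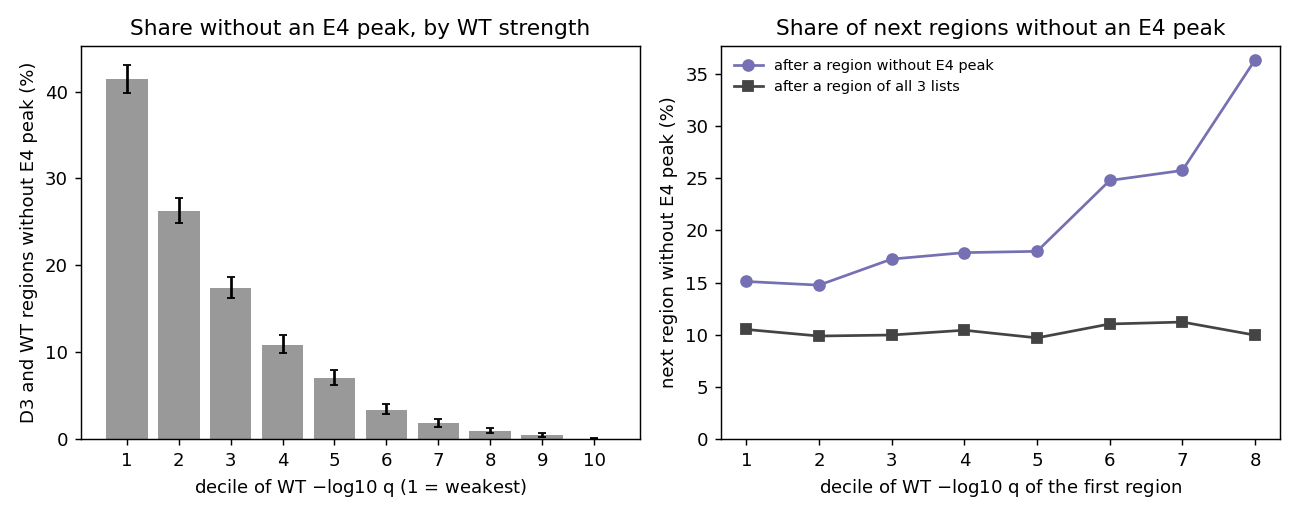
Left, the share of D3 and WT regions without an E4 peak (y axis, percent, bars with exact 95% intervals) in each decile of the WT −log10 q, falling from 41.5% to 0.0281%. Right, the share of next regions along the chromosome without an E4 peak, after a region without one and after a region of all 3 lists, for the deciles with at least 30 regions of the first kind, where the first line lies above the second in each.

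The distance to the nearest E4 peak was close to the ordinary spacing of these regions. The nearest E4 peak lay a median of 20.8 kb away (quartiles 8.19 and 52.8 kb), within 1 kb for 6 regions and within 5 kb for 610 (15.6%). The nearest other D3 and WT region lay a median of 21.3 kb away, and 17.2 kb away from regions of all 3 lists. The nearest E4 peak lay 100 kb or more away for 489 regions (12.5%) and 500 kb or more for 30, up to 1260 kb. The region with the closest E4 peak, chr20:60459830-60461053 in CDH4, was 331 bp from it, and the next 4 were 924 to 943 bp away.

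On the other side of the rule, the smallest E4 overlap in a region of all 3 lists was 34 bp, at chr12:10875021-10875951, and 2 regions overlapped by under 50 bp. The weakest E4 peaks that still counted had a −log10 q of 1.01, at chr3:123014087-123016749 and chr1:190602492-190603111. Among regions of all 3 lists, 893 (2.82%) held an E4 peak under 2. Signal below the authors' calling threshold was not analysed here, so a region without an E4 call may have held a signal just under that threshold.

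The 10 strongest regions were ranked by the lower of their WT and D3 percentiles of −log10 q. By that measure alone, the lack of an E4 peak contrasted most with the other libraries in them. The first was chr19:21665602-21667048, in the zinc-finger gene cluster between ZNF493 and ZNF429, with a −log10 q of 35.0 in WT and 39.2 in D3. Its nearest E4 peak lay 406 kb away. Its fold enrichment of 5.54 in WT and 7.56 in D3 lay below the medians of regions of all 3 lists, 5.66 and 8.98. This chromosome 19 region was the only one without an E4 peak in the strongest WT decile.

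The second was chr8:20898260-20899384, between LZTS1 and GFRA2, which encodes a receptor for neurturin, with 12.5 in WT and 38.0 in D3, and it stood 605 kb from an E4 peak. Its fold enrichment of 7.94 in WT and 15.1 in D3 was higher than that of the chromosome 19 region. The third, chr9:90277577-90278577, lay in DAPK1, which encodes a kinase that promotes cell death, with 12.5 in WT and 38.2 in D3, and here an E4 peak lay only 14.6 kb away. These first 3 regions thus differed widely in their distance to the nearest E4 peak.

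Of the other 7, 3 lay in genes. chr21:41159943-41161059 lay in IGSF5, an immunoglobulin-family adhesion gene, with 11.8 in WT and 26.6 in D3. chr17:65012128-65013383 lay in CACNG4, a calcium channel and glutamate receptor subunit gene, with 11.3 and 29.0. chr7:143018423-143019314 lay in CLCN1, the skeletal muscle chloride channel gene, with 13.0 and 21.7, and its nearest E4 peak was 7.18 kb away.

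The remaining 4 stood between the genes for which windows were drawn. chr5:135760344-135761435, between TRPC7 and SPOCK1, had 12.5 in WT and 24.7 in D3. chr18:68265670-68266797, between SOCS6 and CBLN2, had 11.98 and 28.6. chr12:127865437-127866238, 1722 and 1033 kb from TMEM132B and TMEM132C, had 11.1 and 41.4, and chr13:107569808-107571142, between ARGLU1 and NALF1, had 10.7 and 32.8. In that order, their nearest E4 peaks lay 174, 106, 99.8 and 287 kb away. Of the 10, 9 belonged to runs of 2 or more neighbouring regions without one, beside 28.7% of all 3905 regions. The 10 were picked by values that helped to choose the regions, so this count is a description.

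Neighbouring regions shared the lack of an E4 peak more often than the background. Along the list of D3 and WT regions of each chromosome, the region after one without an E4 peak was itself without one in 645 of 3903 cases (16.5%, interval 15.4% to 17.7%). After a region of all 3 lists this was so in 3255 of 31672 cases (10.3%, interval 9.94% to 10.6%). Position was not used to choose the regions, and with 1 library per population the difference describes these lists.

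The excess was present at every distance between the neighbours. With the next region under 10 kb away the shares were 13.3% and 8.36%, at 10 to 50 kb 13.6% and 9.81%, at 50 to 200 kb 17.8% and 11.0%, and at 200 kb or more 26.98% and 14.8%. It was also present among regions with a WT −log10 q of 5 or more, where 81 of 378 (21.4%) were followed by a region without an E4 peak, against 10.4% after regions of all 3 lists. With lists of equal length the shares were 13.6% and 6.48%, and over the 19781 regions with 5 or more in both WT and D3 they were 8.24% and 1.59%.

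The 3905 regions formed 3260 runs, a run being consecutive D3 and WT regions that all lacked an E4 peak. Most regions stood alone, 2786 of them (71.3%). Runs of 2 or more numbered 474 and held 1119 regions (28.7%), and runs of 3 or more numbered 103 and held 377 (9.65%). There were 15 runs of 5 or more, and the longest had 9 regions. Runs of 3 or more numbered 54 with lists of equal length, and 4 where D3 and WT peaks were limited to values of at least 5 and the E4 list was left whole.

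The longest run lay near the end of 6q, at chr6:168472356-169111828, where 9 regions in a row had no E4 peak over 639 kb. Between the E4 peaks on either side, 823 kb apart, D3 had 11 peaks in the run and WT 9. The −log10 q of the regions ranged from 1.33 to 5.60 in WT and from 1.86 to 12.3 in D3. The strongest by WT, chr6:168472356-168472829 with 5.60 in WT and 3.59 in D3, lay in FRMD1, and the strongest by D3, chr6:168770657-168771571 with 5.02 and 12.3, lay between DACT2, an inhibitor of WNT and TGF-beta signalling, and SMOC2, a matricellular gene. No region of the run stood above percentile 52.4 of the WT list or 61.8 of the D3 list.

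The second run, at chr20:58712281-60174592, held 8 regions over 1462 kb, from beyond CDH26 into CDH4, both cadherin genes, with 10 D3 peaks, 9 WT peaks and no E4 peak. Its strongest region, chr20:58785631-58787024, had a −log10 q of 7.08 in WT and 31.7 in D3 and was 153 kb from the nearest E4 peak. Of its regions, chr20:59837946-59839140 and chr20:60173700-60174592 lay in CDH4, which encodes R-cadherin. The stretch without E4 peaks around the run measured 1666 kb.

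The third run, at chr18:5073011-8052787, spread 7 regions over 2980 kb in which D3 had 24 peaks, WT 7 and E4 1. That 1 E4 peak met no region that held both a D3 and a WT peak. PTPRM, a receptor tyrosine phosphatase that mediates cell adhesion, held 4 of its regions, from chr18:7735105-7735534 with 4.04 in WT and 2.70 in D3 to chr18:8052149-8052787 with 1.17 and 7.66. The single region at chr18:6521527-6522396 was 1096 kb from an E4 peak.

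The fourth, at chr2:16083207-16734979, reached from MYCN, the neuroblastoma oncogene related to MYC, to CYRIA, with 7 regions over 652 kb, 8 D3 peaks and 7 WT peaks. The region in MYCN, chr2:16083207-16084039, had 2.08 in WT and 10.7 in D3, and an E4 peak lay 2.91 kb before it. The fifth, at chr10:86424890-86687885, packed 7 regions into 263 kb between CCSER2 and GRID1, a glutamate receptor gene, with 7 D3 peaks, 7 WT peaks and no E4 peak. It held the strongest region of these 5 runs by WT, chr10:86424890-86426408 with 10.3 in WT and 17.4 in D3. The next region, chr10:86474843-86476490, had 6.82 and 23.2, and the E4 peaks on either side of the run were 934 kb apart. At equal list length 6, 7, 5, 5 and 6 of the regions of these runs were left, the others having lost their D3 peak to the shortening.

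**Figure D3:**
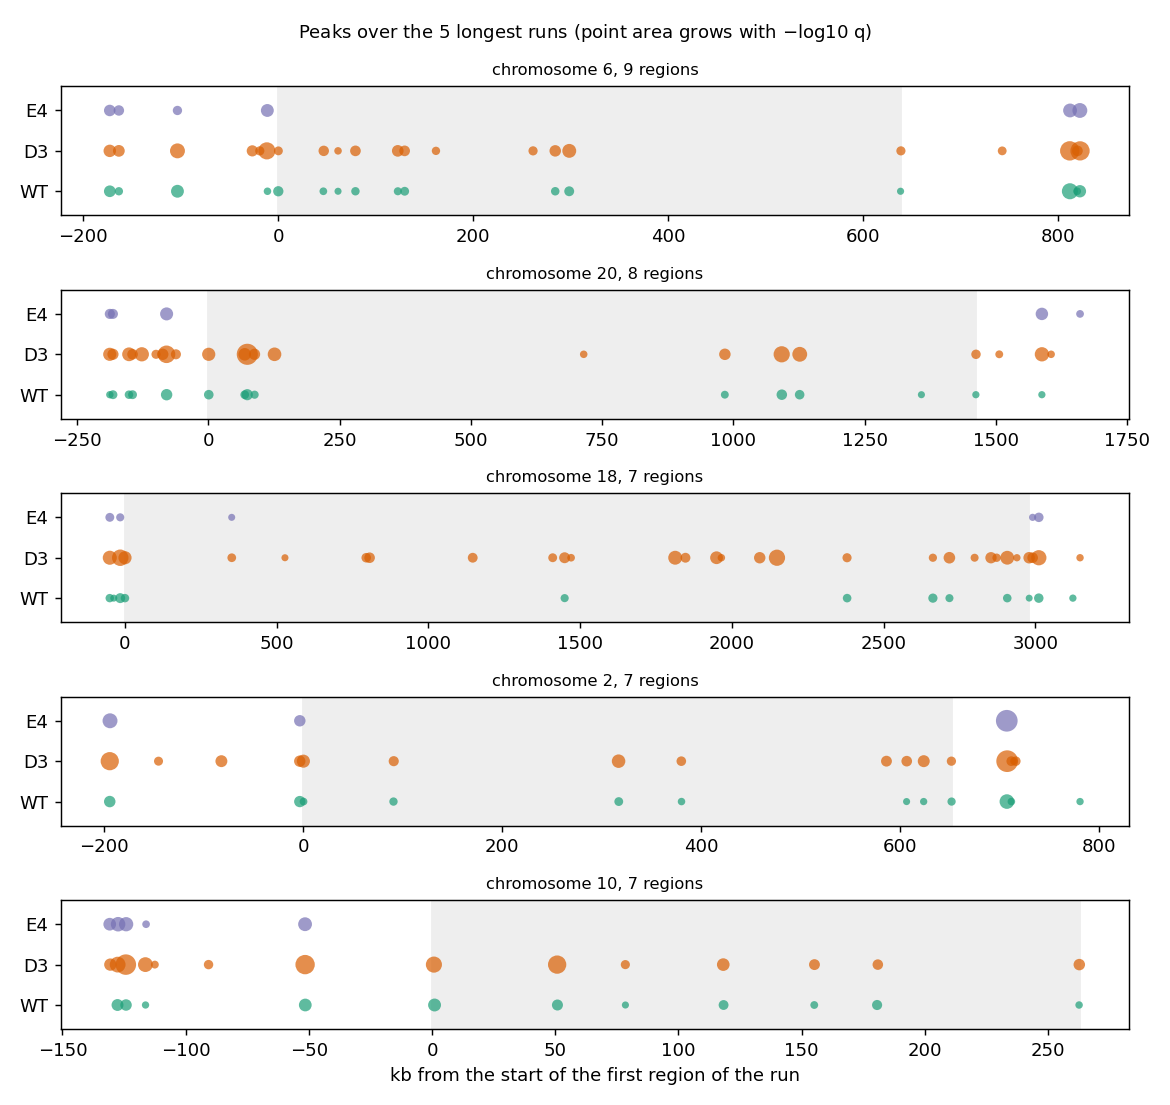
Peaks of WT, D3 and E4 over the 5 longest runs and their surroundings, against the distance in kb from the first region of each run, with the run shaded and the area of a point growing with −log10 q. Inside the shaded spans WT and D3 peaks continue while E4 has 1 peak in the chromosome 18 run and none in the other 4.

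Seen from E4, stretches between neighbouring E4 peaks had a median length of 33.4 kb. The 90 stretches that held 3 or more of the regions had a median of 585 kb, and the 12 that held 5 or more had one of 1014 kb. A longer stretch has room for more regions, so the lengths describe where the runs lay. Regions with few D3 and WT neighbours lacked the E4 peak more often: among those with 0 to 4 others within 250 kb the share was 15.2%, and with 20 to 39 others it was 8.10%. The difference was seen among the strong regions. With a WT −log10 q of 5 or more the share was 5.29% where neighbours were few and 1.06% where they were many, while under 5 it was 23.2% and 23.9%.

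The regions lay on every chromosome from 1 to 22. On chromosome 21, 67 of 364 D3 and WT regions (18.4%, interval 14.6% to 22.8%) had no E4 peak, and on chromosome 8, 302 of 1792 (16.9%, interval 15.1% to 18.7%). On chromosome 13 the share was 13.2%, and on the other 19 chromosomes it ranged from 9.40% (chromosome 6) to 12% (chromosome 2). The intervals of chromosomes 8 and 21 lay above the background of 11.0%. Equal list lengths gave 11.7% for chromosome 8 and 13.8% for chromosome 21, beside 6.99% overall.

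On chromosome 8 the share differed along its length. From 85 Mb to the end, a boundary taken from earlier results of these data, 174 of 887 regions (19.6%) had no E4 peak, and before it 128 of 905 (14.1%). The shares were 40.8% and 27.8% among regions with a WT −log10 q under 5, and 5.45% and 2.46% among those of 5 or more. Beside this, E4 peaks that were called also ranked lower than WT peaks there: in the regions of all 3 lists from 85 Mb, the WT rank exceeded the E4 rank by a median of 12.5 percentile points and the D3 rank exceeded it by 6.63, whereas before 85 Mb the medians were −0.42 and −1.61. The difference from D3 was found in the bins from 85 to 130 Mb, with medians of 4.06 to 15.8 points. It was not found in the 4 bins from 130 Mb onward, where the medians ran from −4.29 to 0.742. The median WT minus D3 rank ran from −1.65 to 4.46 in the bins from 85 to 130 Mb. From 130 Mb onward it was 8.65 to 17.03 in the 4 bins, so WT ranked above both clones there and E4 was not low beside D3. The share without an E4 peak in those 4 bins was 18.2% to 27.6%. The part of these ranks in the shares was not tested.

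**Figure D4:**
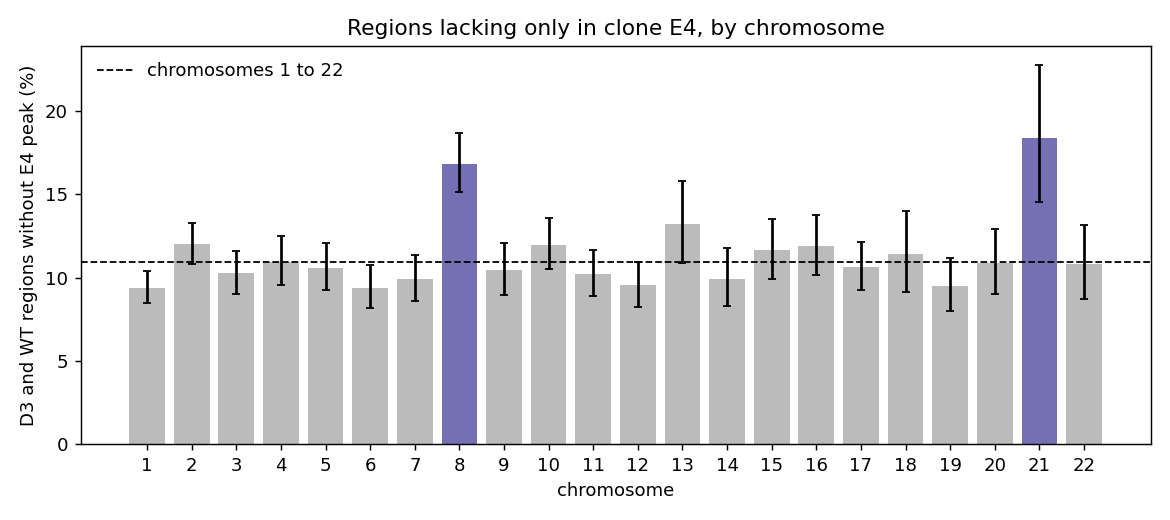
Share of D3 and WT regions without an E4 peak (y axis, percent) on chromosomes 1 to 22, with exact 95% intervals and the share over all of them as a dashed line. Chromosomes 8 and 21, in colour, stand at 16.9% and 18.4%, and the bars of the others lie between 9.40% and 13.2%.

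In bins of 5 Mb with at least 20 D3 and WT regions, 2 of 524 (0.382%) had an interval wholly above 2 times the genome share. These were the end of 6q from 165 to 170 Mb, with 20 of 51 regions (39.2%), which contains the longest run, and the start of 15q from 20 to 25 Mb, with 14 of 36 (38.9%). The 8 next highest shares were found on chromosome 21 from 15 to 20 Mb (9 of 24), chromosome 2 from 15 to 20 Mb (14 of 43), chromosome 12 from 125 to 130 Mb (10 of 33), chromosome 15 from 25 to 30 Mb (13 of 43), chromosome 17 from 10 to 15 Mb (13 of 44), chromosome 21 from 25 to 30 Mb (6 of 21), chromosome 3 from 20 to 25 Mb (8 of 29) and chromosome 8 from 135 to 140 Mb (8 of 29). The chromosome 2 bin contains the MYCN run. In 47 bins the share reached 20%, and in 4 it was 0.

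Bins with a higher share tended to be those in which E4 peaks ranked lower than WT peaks among the regions of all 3 lists. Across the 524 bins Spearman's rho was 0.289 between the share and the median WT minus E4 rank, and 0.242 with the D3 minus E4 rank. With the WT minus D3 rank it was 0.0145. The share and the E4 ranks come from the same E4 library, and all bins share the same 3 libraries, so these values describe the lists.

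**Figure D5:**
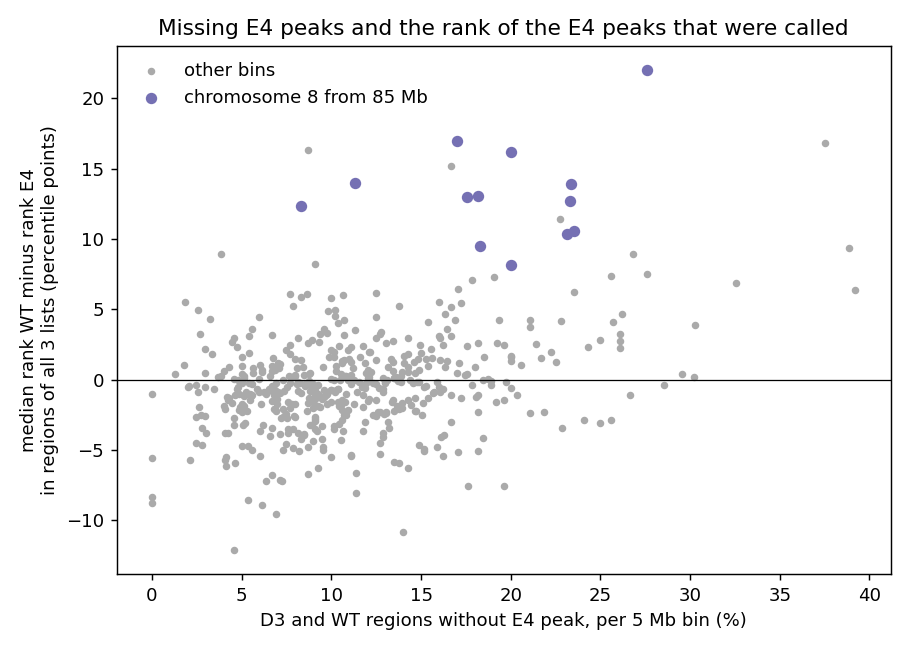
Each point is a 5 Mb bin, with the share of D3 and WT regions without an E4 peak on the x axis (percent) and the median WT rank minus E4 rank in regions of all 3 lists on the y axis (percentile points). The bins of chromosome 8 from 85 Mb, in colour, range from 8.33% to 27.6% on the x axis. On the y axis they lie between 8.17 and 22.01, all above 0. The D3 minus E4 ranks of the same bins, not plotted, run from −4.29 to 15.8. In the 4 bins from 130 Mb onward, the WT minus D3 rank, also not plotted, is 8.65 to 17.03.

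Nearest genes were read from gene windows with 10 kb on either side, in lists chosen with earlier results known. The lists together held 718 D3 and WT regions, of which 90 (12.5%) had no E4 peak, near the background of 11.0%. Distal 8q genes held 25 of 96 (26.0%, interval 17.6% to 36.0%) and very long neural and adhesion genes 33 of 184 (17.9%, interval 12.7% to 24.3%). The gene family clusters held 16 of 265 (6.04%, interval 3.49% to 9.62%). The intervals of the other lists, apart from the protocadherins, contained the background. Strength differed between lists, with a median WT −log10 q of 5.32 in the distal 8q genes, 4.21 in the long genes and 7.14 in the family clusters. Below 5, the share without an E4 peak was 48.9%, 27.8% and 18.4% in these lists, beside a background of 22.5%. From 5 upward it was 4.08%, 3.95% and 1.06%, beside 1.90%. The distal 8q genes thus stood further from the background than the long genes in the weak class, and CSMD3 belongs to both lists. Among all D3 and WT regions of chromosome 8 from 85 Mb, however, 19.6% had no E4 peak, a share inside the interval of the distal 8q genes. In that part of the chromosome the shares were 40.8% below 5 and 5.45% from 5 upward. The distal 8q genes therefore describe their chromosome part and no trait of the listed genes.

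Among distal 8q genes, PTK2, which encodes focal adhesion kinase, had 4 of 7 regions without an E4 peak, the strongest with a −log10 q of 10.1 in WT and 15.8 in D3. CSMD3, a very large transmembrane gene, had 4 of 10, TRAPPC9, a vesicle trafficking gene, 3 of 10, and VPS13B, also a trafficking gene, 2 of 10. RAD21, the cohesin subunit gene, had 2 of 2, both weak in WT with 2.03 and 1.52, and 5.71 and 7.76 in D3. Single regions lay at RUNX1T1, MTDH, ANGPT1, RSPO2, EXT1, ZHX2, TRIB1, PVT1, NDRG1 and KHDRBS3, of which that at RSPO2, a WNT-enhancing secreted factor, was the strongest with 5.91 in WT and 14.8 in D3. OXR1 with 7 regions, ZFPM2 with 5 and GRHL2 with 4 had an E4 peak in each. At equal list length the list held 12 of 81 (14.8%), beside 13.7% over chromosome 8 from 85 Mb, and PTK2 held 2 of 5 and CSMD3 1 of 7.

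Among long genes the regions gathered in a few. CDH13, which encodes the membrane-anchored T-cadherin, had 6 of 8 regions without an E4 peak, from chr16:82664089-82666184 to chr16:83825922-83827163. The strongest of them had 6.70 in WT and 13.9 in D3, and at equal list length 4 of the 6 regions left in the gene had no E4 peak. RBFOX1, a neuronal splicing regulator, had 4 of 6, with up to 7.73 in WT and 37.2 in D3 at chr16:5540149-5541208, and NRXN3, a neurexin of synapses, had 4 of 10. CNTNAP2, LRP1B, PARK2 and PTPRN2 had 2 each, and CSMD1, DLG2, WWOX, LSAMP and EYS 1 each. At equal list length the list held 19 of 155 (12.3%), with 3 of 5 in RBFOX1, 3 of 9 in NRXN3 and 1 of 7 in CSMD3. ROBO2 with 11 regions, MAGI2 with 10 and MACROD2 with 8 had an E4 peak in each.

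In the gene family clusters, the MHC had 5 of 133 regions without an E4 peak, histone cluster 1 3 of 32, the epidermal differentiation complex 3 of 44, the keratin clusters on 12q and 17q 2 of 33 and 1 of 14, and UGT1A, the bilirubin and drug glucuronidation genes, 2 of 3. The imprinted genes had 4 of 30, with 2 of 6 at KCNQ1 and 1 of 4 each at GRB10 and PLAGL1, while the 7 regions at H19 and IGF2, a classic CTCF insulator, all kept an E4 peak. Of the HOX clusters only HOXA had any, 2 of 10, both weak with 2.62 and 1.73 in WT, and HOXB, HOXC and HOXD had none in 10, 4 and 6.

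For the genes closest to the study's themes the counts were small. The CTCF and cohesin genes had 3 of 37 (8.11%), the pair at RAD21 and 1 at ESCO1, a cohesin acetyltransferase gene, while CTCFL, STAG1 and NIPBL had none. The WNT genes had 3 of 35 (8.57%), with 1 each at NKD1, a feedback inhibitor, EPHB3, a receptor of crypt cells, and SP5, a WNT-induced transcription factor, and none at ZNRF3, EPHB2 or TCF7L2. The region at EPHB3 had 2.85 in WT and 15.1 in D3, and that at SP5 2.46 and 5.91. Of the colorectal cancer genes, FBXW7 with 6 regions, TCF7L2 with 4 and BRAF with 3 had an E4 peak in each. The colon epithelial genes, KRT8, GPA33 and CDH1 among them, had 0 of 20, which allows a share of up to 16.8%.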

How the data were processed

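CTCF chromatin immunoprecipitation followed by sequencing was analysed from 1 library each of WT, D3 and E4. Per the submitters' processing notes, CASAVA 1.8.2, Picard 2.23.1, bedtools 2.29.2, MACS2 2.2.7.1 and the build hg19 were used. Aligner, peak-call settings and controls are not given in the sources used here. For every library the authors deposited 1 broad peak list, so peaks were called per sample. Each peak carries the authors' fold enrichment, a ratio over background, and the −log10 q and −log10 p the authors deposited, which were used only within their own list. The score column the authors deposited was not used. Read depth is unknown.

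Lists were merged with pandas 2.3.3, and counts were tested on simulated lists. Exact (Clopper-Pearson) 95% intervals came from scipy 1.17.1. Ranks are percentiles of −log10 q. Gene windows and protocadherin starts were written from general knowledge of hg19, carry no exon or intron assignment, and were compared with RefSeq genes on GRCh38.p14. All 158 single genes had the same chromosome, 146 had a length within 1.25 times, and the order was the same on 20 of 20 chromosomes. The spacing of the 53 protocadherin starts differed by at most 858 bp. The lists are not a complete annotation, so a nearest gene is the nearest one with a window.

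The regions, gene lists and boundaries were chosen with earlier results of these data known. Named were the 10 strongest regions, the 5 longest runs, the 10 bins of highest share, the 5 widest regions, those nearest the rule's limits, every listed gene with such a region (2 are not reported here), and per list up to 3 genes with most regions and none. Where a named set is long, its first items and its range are given. Windows beside the strongest regions and runs were added after their values were seen. Alternatives were a −log10 q of 5, equal list lengths, an E4 peak within 1 kb, 50% coverage of the region, other bins, chromosomes X and Y, and 50 kb around genes.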

Additional observations from a re-analysis of the deposited data

How the results depend on the processing

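Of 59 alternative values, 23 stayed within the interval or within 1.5 times of the count and 36 moved. The cause was not tested where they moved, other than that stricter lists hold fewer peaks. When all 3 lists were limited to a −log10 q of at least 5, 1631 regions lacked an E4 peak (8.25%), with 44 runs of 3 or more, 1 bin that stood out, 14.6% on chromosome 8, 16.7% in the protocadherins, a median width of 1019 bp and 31 regions in the gene lists. With that limit in D3 and WT only, the values were 341 regions (1.72%), 8.24% of next regions, 4 runs, 3.94% on chromosome 8, 16.7% in the protocadherins, 976 bp and 8 in the gene lists. Both protocadherin shares are 1 of 6 regions. Lists of equal length by −log10 q gave 2248 regions (6.99%), 13.6% of next regions, 54 runs, 11.7% on chromosome 8, 835 bp and 49 in the gene lists. By fold they gave 2275 (7.17%), 13.3%, 50 runs, 11.4%, 845 bp and 50. At equal length by −log10 q the opposite set, E4 and WT regions without a D3 peak, numbered 1766 of 31656 (5.58%). By fold it numbered 2129 of 31562 (6.75%), beside 2275 of 31708 (7.17%) without an E4 peak. In the whole lists it was 127 of 31819 (0.399%), so the large excess over that set belongs to the whole lists. Requiring 50% coverage gave 21.8%, 25.7% of next regions, 267 runs, 1 bin, 32.2% on chromosome 8 and 956.5 bp. At each of these settings the share of next regions stayed above that after regions of all 3 lists, and chromosome 8 above the genome share. No paired analysis was possible because the populations share only replicate number 1, and no library could be left out for the same reason. Unknown read depth limits every absence of a peak.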
